A study of Homo sapiens with 48 samples.

Results

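This account is about 4 of the 48 RNA-seq libraries of a study of METTL3 inhibition in neuroblastoma cells: Kelly cells, a human line with amplified MYCN, kept for 6 days with STM2457 or with DMSO and collected before any block of transcription. They were taken by title (Kelly, 6D, 0 h of actinomycin D), as 2 libraries with 8 µM STM2457 and 2 with DMSO, the solvent of the drug. Both groups are labelled wild type, were grown in RPMI with serum and received no actinomycin D. The labels do not say whether the 2 libraries of a group came from separate cultures, so the p-values measure a spread that may be technical. Kelly is a single cell line, and the labels give no second inhibitor or METTL3 mutant beside STM2457 for these groups. Of the other libraries, 20 are Kelly cells at 3 days or after 3 or 6 h of actinomycin D, an agent that stops transcription, and 24 are the corresponding samples of a second line, NGP.

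METTL3 is the catalytic subunit of the complex that places N6-methyladenosine (m6A) on mRNA. Reader proteins of the YTH and IGF2BP families bind the mark and alter how fast an mRNA decays, is spliced or is translated, and the demethylases FTO and ALKBH5 can remove it. Neuroblastoma cells resemble sympathetic precursors, and in culture they can leave the cell cycle, extend neurites or switch between a noradrenergic and a mesenchymal state. The comparison asks what steady-state mRNA levels looked like after 6 days of METTL3 inhibition.

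The libraries held 19291613 and 13807701 fragments in genes in DMSO and 16223400 and 15944730 in STM2457. The ERCC spike-ins, synthetic RNAs added to a sample, took 0.314 and 0.306% of the fragments in DMSO and 0.361 and 0.364% in STM2457. Correlations of log CPM (CPM, counts scaled to library size) were 0.969 for the DMSO pair, 0.973 for the STM2457 pair and 0.965 to 0.970 between the groups. All 8 neuroblastoma markers listed, among them MYCN, HAND2 and DBH, were above 1 CPM in each library, and they summed to 12298 to 12743 CPM in DMSO and 13188 to 13518 CPM in STM2457. Schwann cell markers summed to 7.5 to 12.1 CPM over the 4 libraries and blood cell markers to 3.60 to 9.68 CPM. Fibroblast markers summed to 157 and 159 CPM in DMSO and 158 and 138 CPM in STM2457, mostly PDGFRB, THY1 and COL1A1, while DCN was at 0 in 3 libraries. In bulk RNA, fewer cells of a kind and less RNA per cell cannot be told apart.

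METTL3 mRNA (chromosome 14, positions 21498133 to 21511342 in GRCh38) was at 48.3 and 54.5 CPM in DMSO and 53 and 66.2 CPM in STM2457. The change, given here and below as a log2 difference of STM2457 minus DMSO with its SE, was 0.21 ± 0.17 (edgeR adjusted p = 0.743). STM2457 acts on the protein, so this level does not check the treatment, and 6.62% of the METTL3 exon bases are shared with TOX4. MYCN, the amplified oncogene of this line (chromosome 2, positions 15940550 to 15947007), was at 4593 and 4370.2 CPM in DMSO and 5054 and 4834 CPM in STM2457, a change of 0.14 ± 0.05 (edgeR adjusted p = 0.0699). The MYCN groups did not overlap, but the difference did not pass the threshold of 0.05. Of 9 genes of the m6A writer complex, ZC3H13, a scaffold subunit, rose by 0.28 ± 0.08 (11.1% of the list, against 2.7% of all tested genes). WTAP at 0.38 ± 0.16, VIRMA at 0.12 ± 0.12 and METTL14 at -0.04 ± 0.22 did not pass. Of 15 reader and eraser genes, 3 rose (20%, against 2.7% of all tested genes). They were ALKBH5 (0.39 ± 0.12), IGF2BP1 (0.20 ± 0.06) and HNRNPA2B1 (0.16 ± 0.04). With ERCC scaling IGF2BP1 was at -0.05 and HNRNPA2B1 at -0.09, and none of these 4 calls held when any 1 of the 4 libraries was left out.

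Across the transcriptome, 665 of 16759 tested genes differed at an edgeR adjusted p under 0.05, or 3.97%: 453 were higher with STM2457 (2.7% of the tested genes) and 212 lower (1.26%). At an unadjusted p under 0.05 there were 1923. The changes were modest. Among the called genes the median size was 0.50 on the log2 scale, and 57 of 665 had at least a 2-fold change and a mean of at least 10 CPM. The DMSO and STM2457 libraries did not overlap for any called gene, a pattern that 23.5% of all tested genes showed upward and 18.8% downward. Separation of the libraries in genes named below therefore adds no support to their calls. The median change was 0.00 over all tested genes, of which 914 had no fragment in any of the 4 libraries, and 0.05 over the 9666 genes that averaged 10 CPM or more. Leaving out 1 library left 342 to 399 calls, whichever of the 4 it was, and 319 to 378 of the 665 were among them. Scaling to the ERCC spike-ins, whose share was larger in STM2457, gave 99 higher and 1071 lower genes around a median of -0.21, so directions below are relative to the typical gene.

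**Figure D1:**
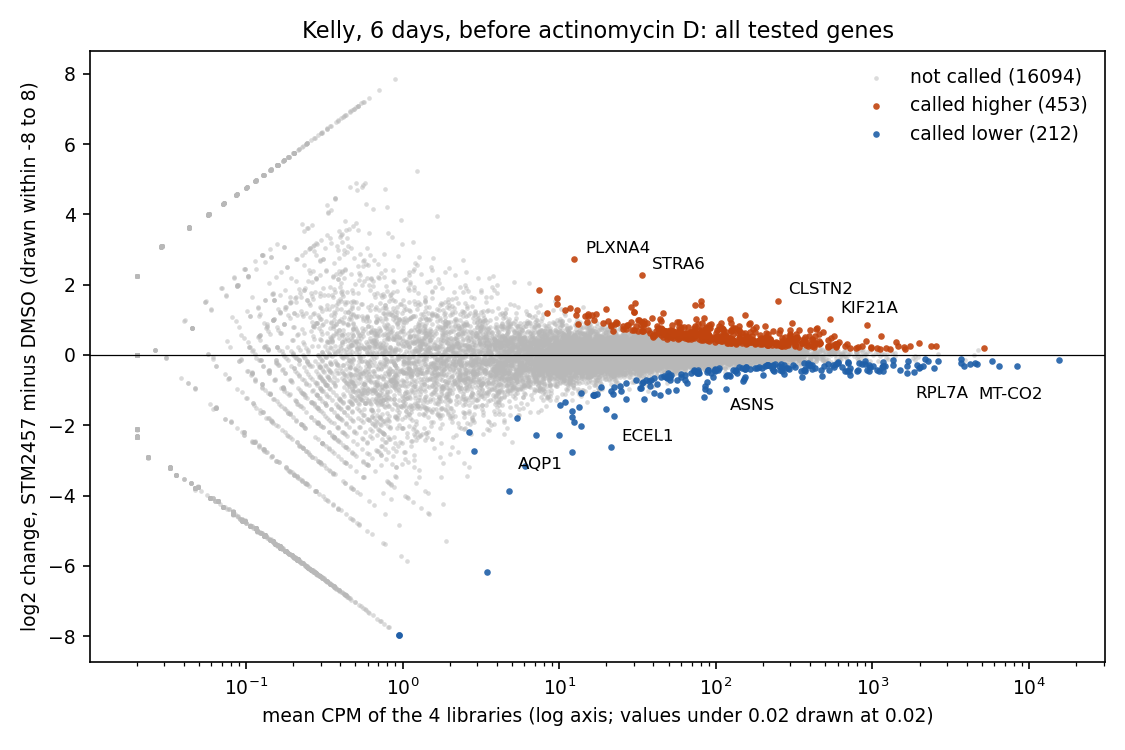
Log2 change of each tested gene against its mean CPM over the 4 libraries, with the 453 genes called higher in orange, the 212 called lower in blue and the others in grey. The called genes lie mostly above 10 CPM, and PLXNA4, STRA6, AQP1 and ECEL1 are among the largest changes there.

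PLXNA4, a plexin receptor for semaphorins (chromosome 7, positions 132123332 to 132648688), was at 4.12 and 2.31 CPM in DMSO and 21 and 22.7 CPM in STM2457, a rise of 2.74 ± 0.32 or 6.67-fold (edgeR adjusted p = 1.26e-12). STRA6, a membrane receptor for retinol uptake (chromosome 15, positions 74179466 to 74212267), was at 9.66 and 13.6 CPM against 55 and 56.7 CPM, a rise of 2.28 ± 0.16 (edgeR adjusted p = 5.11e-29), with 6.77% of its exon bases shared with CCDC33. CLSTN2, a calsyntenin of the postsynaptic membrane, had the smallest p of all genes: 127 and 127 CPM in DMSO against 379.6 and 362 CPM, or 2.92-fold (edgeR adjusted p = 2.10e-43). KIF21A, a kinesin motor of axons, lies outside the 12 largest changes but had the second smallest p, and went from 356 and 351 CPM to 725 and 715 CPM, or 2.04-fold. In each of these genes both STM2457 libraries stood above both DMSO libraries, as in every gene called higher. PRICKLE1 of planar cell polarity (1.49 ± 0.34), ARHGEF28, a guanine nucleotide exchange factor (1.43 ± 0.18), the zinc finger gene TSHZ3 (1.36 ± 0.36), DLG2, a synaptic scaffold (1.33 ± 0.40), TMOD1, an actin-capping protein (1.32 ± 0.25; 45.3% of its exon bases shared with TSTD2), COQ2 of coenzyme Q synthesis (1.29 ± 0.37) and PCLAF, a PCNA-binding protein (1.28 ± 0.31; 28.8% shared with AC087632.2), complete the 12 largest with PLXNA2 and RET, which are described with their families. ARHGEF28 and TMOD1 stayed called without any 1 of the 4 libraries, whereas DLG2 and COQ2 did not pass in any of these fits and PRICKLE1, TSHZ3 and PCLAF passed in some.

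Among the decreases, AQP1 and ECEL1 had the largest. AQP1, a water channel (chromosome 7, positions 30911694 to 30925517), was at 17.4 and 24.8 CPM in DMSO and 2.75 and 3.43 CPM in STM2457, a fall of 6.82-fold (edgeR adjusted p = 1.23e-06), and 26.5% of its exon bases are shared with AC004691.2. ECEL1, a neuronal endopeptidase, was at 37.6 and 36.4 CPM against 6.93 and 5.00 CPM, or 6.19-fold lower (edgeR adjusted p = 1.32e-10). The galectin ligand LGALS3BP changed by -2.01 ± 0.48, the matrix protein EGFLAM by -1.91 ± 0.42, the chloride channel ANO1 by -1.77 ± 0.46 and C2CD4A by -1.74 ± 0.45. LAMA4, a laminin chain, changed by -1.59 ± 0.43, OTOF of vesicle fusion by -1.55 ± 0.30, the proteoglycan SPOCK2 by -1.49 ± 0.47, the adaptor SHC2 by -1.43 ± 0.44, the metalloreductase STEAP3 by -1.33 ± 0.41 and the neuropeptide gene CARTPT by -1.26 ± 0.21. AQP1, ECEL1 and CARTPT were called without any 1 library, the other 9 only in some of the 4 fits or, for SHC2 and STEAP3, in none.

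Many DNA replication genes rose. Of 46 listed genes for origin licensing and the replication fork, 25 rose (54.3%, against 2.7% of all tested genes), the other 21 did not pass, and all 46 had a positive change, with a median of 0.49. MCM3, a subunit of the replicative helicase (chromosome 6, positions 52264014 to 52284881), was at 327 and 334 CPM in DMSO and 561 and 557 CPM in STM2457, a rise of 0.76 ± 0.07 or 1.69-fold (edgeR adjusted p = 1.15e-17). MCM5 of the same helicase went from 140.1 and 127 CPM to 239 and 221 CPM, or 1.73-fold. The checkpoint adaptor CLSPN went from 117 and 114 CPM to 197 and 226 CPM, or 1.83-fold, and FEN1, which trims flaps of lagging-strand DNA, from 77.8 and 72.9 CPM to 143 and 139.5 CPM, or 1.87-fold. MCM4 rose by 0.50 ± 0.07. In these 5 genes both STM2457 libraries lay above both DMSO libraries, and the calls held without any 1 library, while the count for the list was then 14 to 19. With ERCC scaling 11 members were higher and the median was 0.24.

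E2F factors switch on many S-phase genes through promoter sites, so the RefSeq promoter windows (250 bases before to 50 after the start, GRCh38.p14) were searched on both strands for TTTCCCGC or TTTGGCGC. The motif was in 36.0% of 50 windows of the replication list (39 of 46 genes had a window) and in 37.0% of 27 windows of its called members, against 2.97% of 18983 windows of all tested genes, 7.0% of those of the genes called higher and 2.38% of those called lower. The windows of 3 called replication genes of small p with a match are shown because they let the motif be seen in place; capitals mark it, and each window is written in the direction of the gene.
MCM3 (chr6:52284693-52284992, minus strand): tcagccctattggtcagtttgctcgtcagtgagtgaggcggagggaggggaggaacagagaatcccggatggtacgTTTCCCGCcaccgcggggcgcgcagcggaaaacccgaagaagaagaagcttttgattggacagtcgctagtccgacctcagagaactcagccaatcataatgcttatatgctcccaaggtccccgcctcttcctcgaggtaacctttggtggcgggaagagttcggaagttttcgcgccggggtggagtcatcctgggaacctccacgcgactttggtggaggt
CLSPN (chr1:35769929-35770228, minus strand): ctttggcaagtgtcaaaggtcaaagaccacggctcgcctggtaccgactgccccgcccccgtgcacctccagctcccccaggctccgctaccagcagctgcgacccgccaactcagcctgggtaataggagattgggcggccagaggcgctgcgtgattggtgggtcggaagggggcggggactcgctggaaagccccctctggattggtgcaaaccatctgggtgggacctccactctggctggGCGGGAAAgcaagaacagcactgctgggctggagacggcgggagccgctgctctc
CDC6 (chr17:40287629-40287928, plus strand): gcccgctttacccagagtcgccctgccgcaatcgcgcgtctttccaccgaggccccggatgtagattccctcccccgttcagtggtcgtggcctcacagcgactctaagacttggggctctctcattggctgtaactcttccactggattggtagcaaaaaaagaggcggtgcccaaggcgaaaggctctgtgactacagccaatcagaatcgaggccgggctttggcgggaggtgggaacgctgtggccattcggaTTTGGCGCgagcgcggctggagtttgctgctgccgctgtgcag
CLSPN holds the motif on the other strand, as GCGGGAAA. A match is a description of these letters and not a measured binding site.

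Some genes of later cell cycle steps rose as well. Of 33 mitosis genes 12 rose (36.4%, against 2.7% of all tested genes), with a median of 0.32. Without 1 library 5 to 7 were called higher, and ERCC scaling gave 1 higher and 0 lower with a median of 0.07. MKI67, the proliferation antigen, went from 947 and 905 CPM to 1340.3 and 1369.6 CPM, a rise of 0.55 ± 0.06 (edgeR adjusted p = 1.63e-15), and CENPF of the kinetochore rose by 0.36 ± 0.05, ASPM of the spindle pole by 0.46 ± 0.08, TOP2A, which untangles DNA, by 0.32 ± 0.06 and BIRC5 by 0.46 ± 0.10. Of 27 regulators of G1 and S phase, 4 rose (14.8%, against 2.7% of all tested genes). They were cyclin D1 (CCND1, 0.51 ± 0.09), E2F2 (0.95 ± 0.21), E2F1 (0.66 ± 0.17) and CCND3 (1.14 ± 0.36). The last of these passed in none of the fits without 1 library. Of this list, without 1 library 1 to 4 were called higher, and ERCC scaling gave 1 higher and 2 lower. Mitosis promoters held the CHR motif (TTTGAA or TTCGAA, either strand) in 76.5% of 34 windows, against 12.9% of the windows of all tested genes. The share was 77.8% of 9 windows for the called mitosis genes, much as for the whole list. Among all genes called higher it was 17.6% of the windows, and among those called lower 11.4%.

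Some enzymes of deoxynucleotide synthesis and some DNA repair genes rose. Of 10 deoxynucleotide genes 6 rose (60%, against 2.7% of all tested genes). They were RRM2 and RRM1 of ribonucleotide reductase (0.70 ± 0.07 and 0.42 ± 0.12), TK1 (0.84 ± 0.16), DTYMK (0.70 ± 0.17), TYMS (0.44 ± 0.10) and DUT (0.37 ± 0.11). RRM2 was at 219.5 and 235 CPM in DMSO and 365 and 373 CPM in STM2457. RRM2B (-0.18 ± 0.23), DCK (-0.07 ± 0.25) and SAMHD1 (-0.27 ± 0.22) did not pass. Without 1 library 2 to 4 were called higher, and ERCC scaling gave 2 higher and 0 lower with a median of 0.15. Of 26 genes of homologous recombination and the Fanconi pathway 9 rose (34.6%, against 2.7% of all tested genes), with a median of 0.44. Among the 9 were the exonuclease EXO1 (0.72 ± 0.12), BRCA1 (0.50 ± 0.11), FANCD2 (0.52 ± 0.12) and BRIP1 (0.50 ± 0.14). The other 17 repair genes did not pass, 4 of them with negative changes. For the repair list, without 1 library 2 to 5 were called higher, and ERCC scaling gave 1 higher and 0 lower with a median of 0.19. The 20 p53 targets gave no call with edgeR or DESeq2 and 1 with limma-voom, with 1 higher and 1 lower at an unadjusted p under 0.05 and a median of -0.12. MDM2 was at 0.14 ± 0.10 and ZMAT3 at -0.18 ± 0.11. Together the 5 cell cycle and repair lists hold 142 tested genes, of which 56 rose and 126 had a positive change, and these 56 were 12.4% of all genes called higher.

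**Figure D2:**
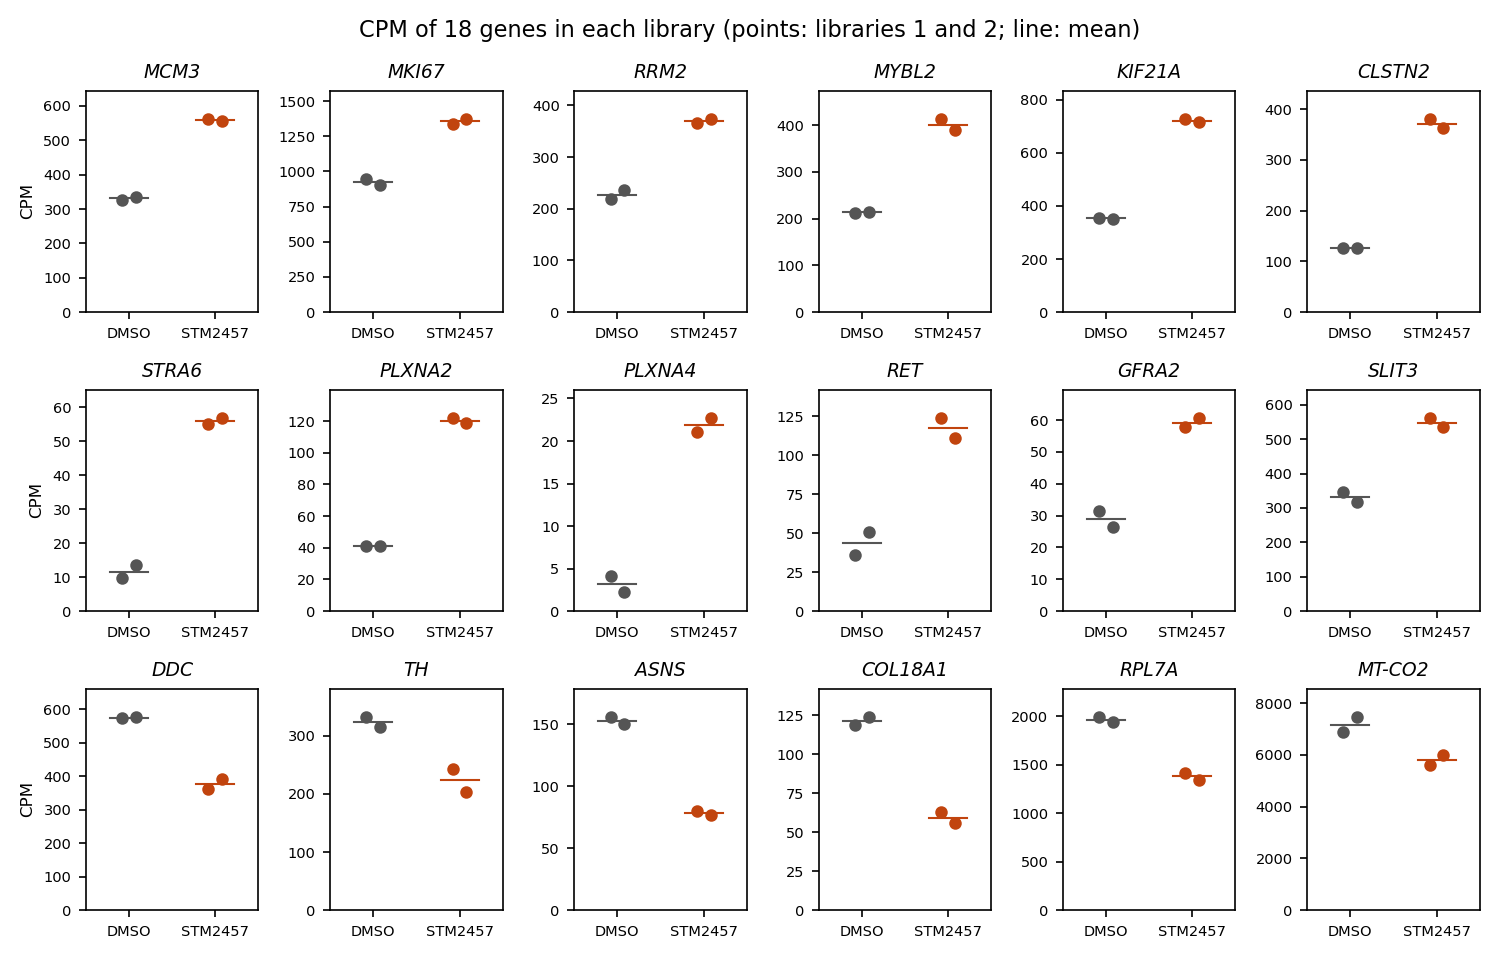
CPM of 18 named genes in each library, on linear axes from 0, with grey points for DMSO, orange points for STM2457 and a line at the mean of each pair. In each panel the 2 STM2457 points lie on one side of the 2 DMSO points, as for every called gene.

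Several genes of the neuronal cytoskeleton rose. Of 25 listed, 9 did (36%, against 2.7% of all tested genes), with a median of 0.21. ERCC scaling gave 1 higher and 6 lower with a median of -0.05. The microtubule proteins MAP1B (0.34 ± 0.04) and MAP1A (0.67 ± 0.10), the neurofilament genes NEFL (0.55 ± 0.10) and NEFM (0.45 ± 0.08) and DPYSL5 of growth cones (0.42 ± 0.08) had the smallest p and were called without any 1 library. MAP1A was at 104 and 114 CPM in DMSO and 161 and 185 CPM in STM2457. Of 30 synapse and secretory vesicle genes, 3 rose (10%, against 2.7% of all tested genes). They were CHGA (0.19 ± 0.03) and CHGB (0.32 ± 0.07), both vesicle granins, and the neuronal RNA-binding gene ELAVL4 (0.95 ± 0.19). The median of that list was -0.01, and with ERCC scaling CHGA was at -0.07 and the list had 1 higher and 4 lower. Of 46 voltage-gated and calcium release channel genes, 1 was called (2.17%, against 2.7% of all tested genes): ITPR1, an inositol trisphosphate receptor, at 0.43 ± 0.12. That call was lost with limma-voom, with the length trend removed, with ERCC scaling and without 3 of the 4 libraries.

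Receptors for neurotrophic and guidance cues held some of the largest rises. RET, the receptor tyrosine kinase for GDNF family ligands (chromosome 10, positions 43077064 to 43130351), was at 35.9 and 51 CPM in DMSO and 124 and 111 CPM in STM2457, a rise of 1.44 ± 0.11 or 2.71-fold (edgeR adjusted p = 2.01e-25). Its co-receptors GFRA2 (1.03 ± 0.16) and GFRA1 (0.51 ± 0.12) and the kinase ALK (0.72 ± 0.12) rose too. That makes 4 of 17 listed genes (23.5%, against 2.7% of all tested genes), or 3 higher and 1 lower with ERCC scaling. PLXNA2, a semaphorin receptor like PLXNA4, went from 41.1 and 41.4 CPM to 122 and 119 CPM, or 2.92-fold (edgeR adjusted p = 1.15e-23). The guidance ligand SLIT3 went from 346 and 316 CPM to 560.1 and 535 CPM, or 1.66-fold, whereas SLIT2 of the same family changed by -0.72 ± 0.20. With EPHB2 (0.50 ± 0.15) and NRP1 these were 5 rises and 1 fall among 59 axon guidance genes, whose median was 0.00. That is 8.47% higher and 1.69% lower, against 2.7% and 1.26% of all tested genes. Without any 1 library 3 rises were called, and ERCC scaling gave 3 higher and 5 lower.

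Several genes of catecholamine synthesis and storage fell. Of the 15 listed, 33.3% were called lower and 13.3% higher, against 1.26% and 2.7% of all tested genes. ERCC scaling gave 1 higher and 5 lower. DDC, which forms dopamine, was at 573 and 575 CPM in DMSO and 362 and 391 CPM in STM2457, a fall of 1.53-fold (edgeR adjusted p = 5.57e-13). TH, the rate-limiting enzyme, changed by -0.54 ± 0.08, DBH, which forms noradrenaline, by -0.34 ± 0.05, and the vesicular transporter SLC18A1 by -1.01 ± 0.17. SLC18A2 was lower as well, with 52.3% of its exon bases shared with PDZD8. The noradrenaline reuptake transporter SLC6A2 rose by 0.81 ± 0.13, as did MAOA, which breaks catecholamines down, by 0.35 ± 0.07. In all, 5 of the 15 genes fell and 2 rose, and the calls for DDC, TH, DBH, SLC18A1 and SLC6A2 held without any 1 library.

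Of 18 transcription factors of the noradrenergic state 14 had a positive change and 4 a negative one. In all, 6 rose (33.3%, against 2.7% of all tested genes), among them TBX2 (0.91 ± 0.12), ISL1 (0.83 ± 0.18) and SOX4 (0.64 ± 0.18). GATA3 at 0.38 ± 0.11 was also called. TFAP2B (-0.31 ± 0.09) and HAND2 (-0.20 ± 0.06) fell (11.1%, against 1.26%). Neither fall held in every fit without 1 library, and 1 fall was left with the length trend removed. Without 1 library 3 to 4 were called higher, and ERCC scaling gave 3 higher and 2 lower. TBX2 was at 108 and 121 CPM in DMSO and 218 and 213 CPM in STM2457. Of 20 genes of the mesenchymal state 1 rose (5%, against 2.7% of all tested genes): FN1, the matrix glycoprotein fibronectin, by 0.59 ± 0.13. FN1 lost its call with ERCC scaling, which gave 0 higher and 3 lower, and in at least 1 fit without 1 library. The list summed to 657 to 694 CPM in DMSO and 661 to 684 CPM in STM2457. The median of that list was -0.10. Beside STRA6, the 17 retinoid genes held 1 fall, of the retinoic acid-binding protein CRABP1 (-0.78 ± 0.13). That is 5.88% each way, against 2.7% higher and 1.26% lower of all tested genes. DLK1, a Notch ligand made at high levels in these cells, went from 2298 and 2177 CPM to 1826 and 1720.5 CPM (-0.34 ± 0.04). It was the sole call among 28 ID and Notch genes, or 3.57% lower. HOX genes gave no call among 25 tested with edgeR or DESeq2 and 1 with limma-voom, with 2 higher and 0 lower at an unadjusted p under 0.05; HOXC4 was at -0.01 ± 0.22 and HOXD13 at 0.73 ± 0.34.

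Several collagen and laminin genes fell. Of the 42 genes listed with integrins, 11.9% were called lower and 4.76% higher, against 1.26% and 2.7% of all tested genes. COL18A1, the collagen that yields endostatin, was at 119 and 124 CPM in DMSO and 62.9 and 55.8 CPM in STM2457, a fall of 2.04-fold (edgeR adjusted p = 2.26e-11). COL6A1 changed by -0.68 ± 0.11 and the laminin chain LAMA5 by -0.45 ± 0.11, against a rise of COL4A2 by 0.29 ± 0.08. With COL6A3, LAMA4 and FN1 these were 5 falls and 2 rises among 42 collagen, laminin and integrin genes, with a median of -0.02. No fit without 1 library called all 5 falls or both rises. ERCC scaling gave 0 higher and 8 lower. The growth factor gene IGF2, which shares part of its exon bases with AC132217.2, went from 817 and 809 CPM to 588 and 605 CPM (-0.45 ± 0.06). Its clearance receptor IGF2R changed by -0.36 ± 0.10. With IGF2BP1 these were the calls among 19 genes of the IGF axis. That is 5.26% higher and 10.5% lower, against 2.7% and 1.26% of all tested genes. RGS5, a brake on G protein signalling, changed by -0.16 ± 0.03, from 6010.1 and 6335 CPM in DMSO to 5351 and 5684 CPM. Immediate early genes (30 tested) gave no call with edgeR, DESeq2 or limma-voom, with 0 higher and 0 lower at an unadjusted p under 0.05; the most abundant, MCL1 and FOSL2, were at 0.22 ± 0.12 and 0.10 ± 0.15. The same 3 tools gave no call among 20 interferon response genes, with 0 higher and 0 lower at an unadjusted p under 0.05.

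Some enzymes of amino acid synthesis fell. ASNS, which makes asparagine (chromosome 7, positions 97851677 to 97872542), was at 156 and 150.2 CPM in DMSO and 79.7 and 76.5 CPM in STM2457, or 1.96-fold lower (edgeR adjusted p = 1.93e-11). ALDH1L2 of mitochondrial folate metabolism changed by -1.13 ± 0.20, PHGDH, the first enzyme of serine synthesis, by -0.46 ± 0.08, PYCR1 of proline synthesis by -0.49 ± 0.12 and the folate enzyme MTHFD2 by -0.35 ± 0.09. These and ASS1 were 6 falls among 25 genes (24%, against 1.26% of all tested genes), with a median of -0.19, and the other 19 did not pass. Without 1 library 4 to 5 were called. Cytosolic aminoacyl-tRNA synthetases fell in 6 of 20 cases, with EPRS1 (-0.33 ± 0.06), QARS1 (-0.56 ± 0.11) and AARS1 (-0.38 ± 0.09) called without any 1 library, and YARS1 and MARS1 called as well; 3 to 5 of the 20 were called without 1 library. The amino acid transporter SLC7A5 changed by -0.38 ± 0.10, the sole call among 25 transporters. Of the synthetases 30% were called lower and of the transporters 4%, against 1.26% of all tested genes. The ATF4 factor, which drives many of these genes under amino acid stress, was at 397 and 357 CPM in DMSO and 314 and 309.9 CPM in STM2457 (-0.27 ± 0.09, edgeR adjusted p = 0.0559). Its list of 21 regulators and targets had a median of -0.20 and no call with edgeR, 1 with DESeq2, 3 with limma-voom and 0 higher and 3 lower at an unadjusted p under 0.05.

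The composite C/EBP-ATF motif TGATGNAAN was in 17.2% of 29 promoter windows of the serine, asparagine and one-carbon list and in 33.3% of 21 windows of the synthetase list, against 2.46% of the windows of all tested genes. It was in 3.81% of the windows of all genes called lower and 1.08% of those called higher. Of the called members of the first list only ASNS had a window with a match, in 1 of its 2 windows, which is shown with the motif in capitals.
ASNS (chr7:97872359-97872658, minus strand): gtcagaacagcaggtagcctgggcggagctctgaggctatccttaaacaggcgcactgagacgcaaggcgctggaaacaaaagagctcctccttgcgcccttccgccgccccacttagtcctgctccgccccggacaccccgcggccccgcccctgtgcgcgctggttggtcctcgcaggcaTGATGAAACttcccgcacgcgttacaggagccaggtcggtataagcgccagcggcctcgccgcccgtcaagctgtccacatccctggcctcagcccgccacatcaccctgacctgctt
ALDH1L2 had no window among them.

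Cytosolic ribosomal protein genes made up a large part of the genes called lower. Of 79, 48 fell (60.8%, against 1.26% of all tested genes), and these 48 were 22.6% of the 212 genes called lower. RPL7A was at 1987 and 1939 CPM in DMSO and 1419 and 1341 CPM in STM2457, or 1.42-fold lower (edgeR adjusted p = 2.13e-18). RPL5 (-0.49 ± 0.05), RPL23 (-0.58 ± 0.06), RPL3 (-0.38 ± 0.04) and RPL19 (-0.46 ± 0.05) follow in p, and the median of the list was -0.29. The changes were small, from -0.58 to 0.17, and 40 to 47 members were called lower without 1 library. Ribosomal protein genes have many near-identical pseudogenes, and how reads matching several places were counted is not given in the sources used here. Among 43 nucleolar assembly genes, NPM1 fell (-0.28 ± 0.04) and NCL rose (0.26 ± 0.04). That is 2.33% each way, near the 1.26% lower and 2.7% higher of all tested genes. Mitochondrial ribosomal proteins had 5 rises among 77 (6.49%, against 2.7% of all tested genes), such as MRPL41 (0.60 ± 0.16) and MRPS34 (0.51 ± 0.14). Their median was 0.02 (-0.23 with ERCC scaling), and most of these calls were lost in each fit without 1 library.

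The 13 mRNAs encoded in mitochondrial DNA were all on the lower side, and 7 fell. MT-CO2, a subunit of cytochrome oxidase, was at 6875 and 7446 CPM in DMSO and 5607 and 6000.4 CPM in STM2457 (-0.30 ± 0.04, edgeR adjusted p = 1.78e-11). MT-CO3 changed by -0.32 ± 0.04, MT-ND4 by -0.31 ± 0.04, MT-ATP6 by -0.27 ± 0.05 and MT-ND5 by -0.23 ± 0.05. These mRNAs share a few precursor transcripts and are not independent, and DESeq2 called 2 of them. With the length trend removed 3 were called and the median moved from -0.20 to -0.07. Mitochondrial genes took 6.70 and 7.38% of the fragments in DMSO and 5.98 and 6.04% in STM2457. Nuclear genes of oxidative phosphorylation had 1 rise, of NDUFA6, and 3 falls, COX7A2L and COX7C included, in a list of 80, or 1.25% higher and 3.75% lower against 2.7% and 1.26% of all tested genes. These counts turned with the setting: 3 higher and 0 lower with the length trend removed, 2 and 10 with DESeq2, 0 and 26 with ERCC scaling, and at most 1 lower without 1 library.

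Some genes of glucose uptake and glycolysis fell, and some of sterol synthesis rose. The glucose transporter SLC2A1 was at 110.1 and 112 CPM in DMSO and 62.8 and 58.3 CPM in STM2457, or 1.83-fold lower (edgeR adjusted p = 3.94e-07), and hexokinase HK2 changed by -0.59 ± 0.12. ALDOC (-0.94 ± 0.21), GAPDH (-0.12 ± 0.04) and BNIP3 (-0.43 ± 0.14) fell as well. In all, 5 of 32 analysed genes of glycolysis and hypoxia fell (15.6%, against 1.26% of all tested genes). Of these, 2 to 4 were called without 1 library. HMGCS1, an early enzyme of cholesterol synthesis, went from 100.4 and 103 CPM to 176 and 186 CPM, or 1.78-fold (edgeR adjusted p = 5.74e-11). FDFT1 (0.54 ± 0.10), FASN (0.25 ± 0.05) and SCD (0.26 ± 0.06) rose too. Of the 33 sterol and fatty acid genes 9 rose (27.3%, against 2.7% of all tested genes) and 1 fell (3.03%, against 1.26%). Without 1 library 3 to 6 rises were called, and with ERCC scaling the list had 1 higher and 3 lower, FASN was at -0.01 and the list's median moved from 0.26 to 0.01. Of 28 heat shock chaperones 4 rose (14.3%, against 2.7% of all tested genes) and 1 fell (3.57%, against 1.26%). HSPH1, a co-chaperone of HSP70, had the clearest change (0.69 ± 0.08). The fall, of TRAP1, was not called with the length trend removed or in any fit without 1 library. HSPA8 (0.23 ± 0.05), HSP90AA1 (0.17 ± 0.05) and DNAJA1 (0.24 ± 0.07) were at -0.02, -0.08 and -0.01 with ERCC scaling, which gave 1 higher and 12 lower for the list, and 1 to 2 rises were called without 1 library. In the endoplasmic reticulum PDIA4 rose by 0.36 ± 0.08 and CANX changed by -0.19 ± 0.06, as 2 of 22 chaperones. That is 4.55% each way, against 2.7% higher and 1.26% lower of all tested genes. CANX was not called with the length trend removed or in any fit without 1 library. PDIA4 lost its call with ERCC scaling (0 higher and 5 lower for the list) and in at least 1 fit without 1 library.

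Some RNA processing genes rose. Among 35 SR protein and hnRNP genes 7 rose (against 2.7% of all tested genes), led by HNRNPF (0.43 ± 0.09) and HNRNPA0 (0.41 ± 0.10), and HNRNPA1 fell (-0.16 ± 0.05). The median of that list was 0.11. Without 1 library 1 to 3 were called higher, and ERCC scaling gave 0 higher and 9 lower with a median of -0.14. Of 45 genes for deadenylation, decapping and the exosome, the deadenylase subunit PAN2 fell (-0.92 ± 0.26) and LSM3 rose (0.45 ± 0.14). That is 2.22% each way, near the 1.26% lower and 2.7% higher of all tested genes. LSM3 lost its call with RLE size factors (another scaling of the counts), ERCC scaling and limma-voom. Neither the PAN2 nor the LSM3 call held in every fit without 1 library. Purine and pyrimidine synthesis had 1 rise, of PFAS (0.33 ± 0.09), and 1 fall, of IMPDH2 (-0.43 ± 0.11), among 22. That is 4.55% each way, against 2.7% higher and 1.26% lower of all tested genes. PFAS lost its call with ERCC scaling, and neither of these 2 calls held in every fit without 1 library. The 241 zinc finger genes of chromosome 19 gave no call with edgeR or limma-voom and 1 with DESeq2, with 6 higher and 1 lower at an unadjusted p under 0.05, and ZNF146 was at -0.15 ± 0.10.

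**Figure D3:**
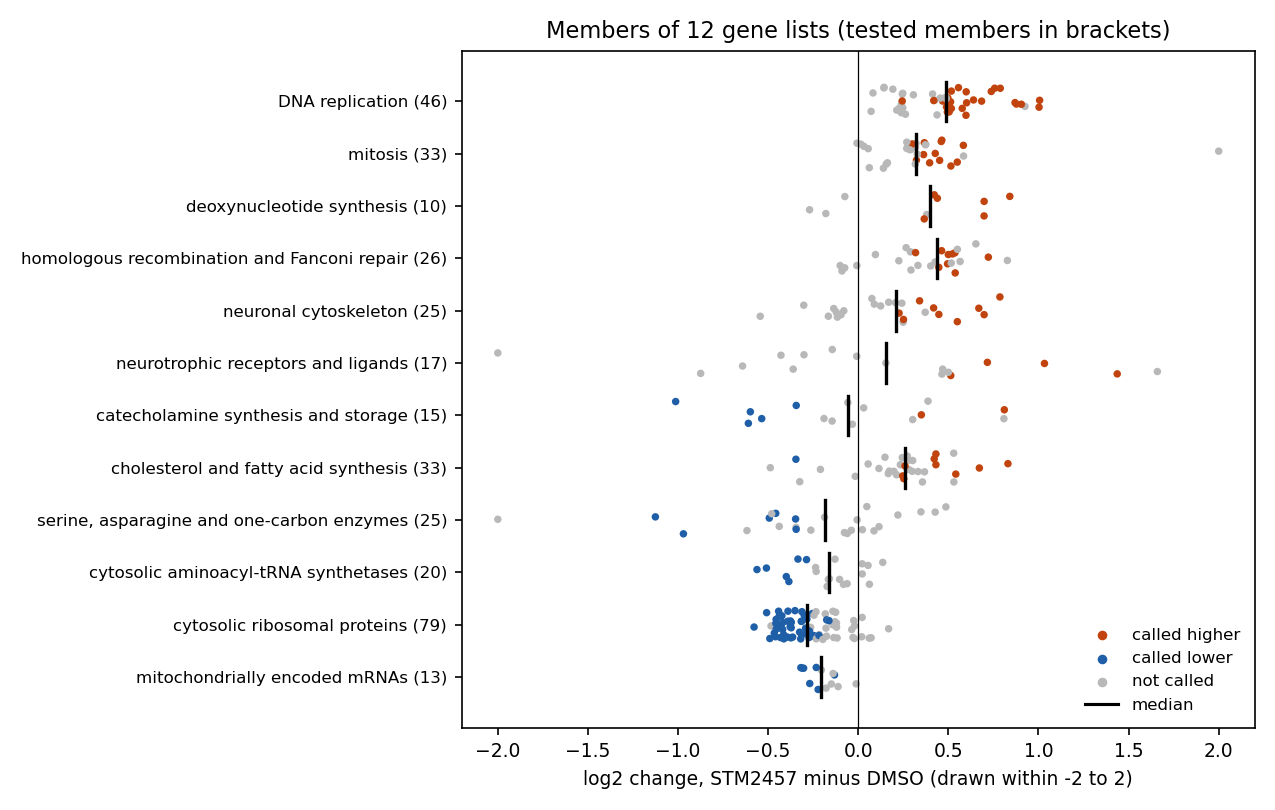
Log2 change of each tested member of 12 gene lists, with called members in orange or blue, the others in grey and the median as a black bar. All 46 DNA replication genes lie above 0 and all 13 mitochondrially encoded mRNAs below it; with ERCC scaling all medians shift down and those of the neuronal cytoskeleton and neurotrophic lists cross 0.

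The same drug contrast was measured in 8 other Kelly libraries of 6 days, collected after 3 or 6 h of actinomycin D; the labels do not say whether they share cultures with the 0 h libraries. At 3 h, 872 of 16759 genes were called (5.2%; 3.18% higher and 2.02% lower) and at 6 h 1657 (9.89%; 5.76% higher and 4.12% lower). Of the 665 genes called at 0 h, 97.4% had the same sign at 3 h and 95.3% at 6 h, against 69.1 and 66.2% of the genes averaging 10 CPM or more. Calls in the same direction were made for 400 at 3 h and 463 at 6 h, for 355 at both, and for 157 at neither. CLSTN2 was at 1.41 at 3 h and 1.61 at 6 h, RET at 1.52 and 1.37, and ASNS at -1.13 and -1.18. Some genes differed more after the block: IGF2 was at -0.60 and -1.28, FEN1 at 1.23 and 2.48, and SLC2A1 at -1.03 and -1.85, a course not tested here. MYCN was at -0.04 at 3 h and fell at 6 h (-0.29, edgeR adjusted p = 4.71e-07). E2F2, at 0.95 before the block, was at 0.51 and 0.17 and was not called at either time.

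**Figure D4:**
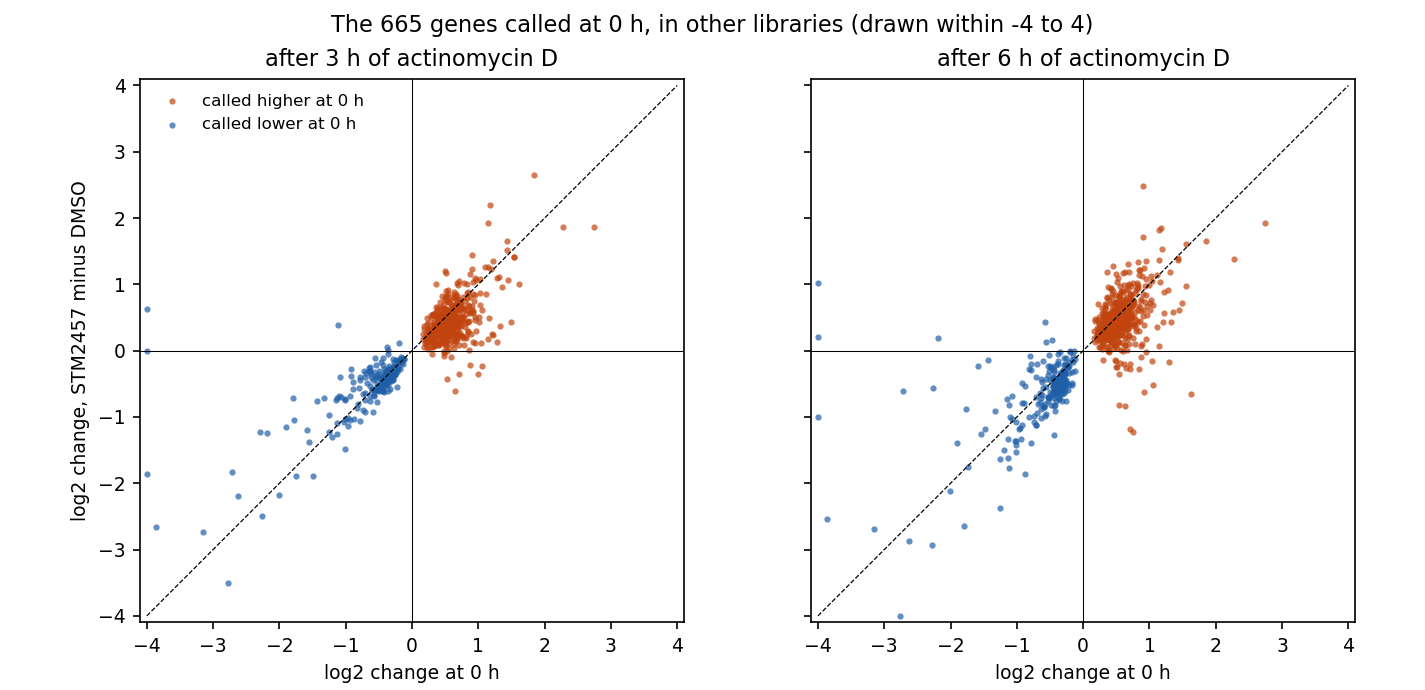
Log2 change after 3 h (left) and 6 h (right) of actinomycin D against the change at 0 h for the 665 genes called at 0 h, orange for higher and blue for lower. Most points lie in the 2 quadrants of equal sign, 97.4% at 3 h and 95.3% at 6 h.

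Whether 6 days differed from 3 days was tested as a difference of the 2 drug effects. It was called for 132 of 16759 genes (0.788%): 114 with a more positive change at 6 days (0.68%) and 18 with a more negative one (0.107%). At 3 days the drug contrast itself gave 282 calls (1.68%), 97 higher (0.579%) and 185 lower (1.1%). CLSTN2 (1.55 at 6 days, 0.32 at 3 days), STRA6 (2.28 and 0.18), PLXNA2 (1.54 and 0.06), MYBL2, a transcription factor of proliferating cells (0.91 and 0.00), and HSP90AA1 (0.17 and -0.36) had the smallest p. Of the 46 replication genes 13 were called in this difference, MCM3 among them (0.67, edgeR adjusted p = 4.24e-07), and at 3 days the list had 1 rise and a median of 0.00. Of the 13 mitochondrially encoded mRNAs 5 were more negative at 6 days, and the 3-day median was 0.03. Mitochondrial genes took 5.86 and 5.32% of the fragments in DMSO at 3 days and 6.70 and 7.38% at 6 days. In STM2457 they took 6.02 and 5.48% at 3 days and 5.98 and 6.04% at 6 days. The shares thus differed between the durations mainly in DMSO, and the cause was not tested. Ribosomal protein genes fell at both times, 31 at 3 days and 48 at 6 days, with 1 called in the difference in each direction. DDC (-0.65 at 3 days), TH (-0.91) and DBH (-0.57) had fallen by 3 days, and none of these 3 was called in the difference (edgeR adjusted p of 1.00, 0.0941 and 0.154). Of all 15 catecholamine genes, 2 were called more positive at 6 days and 1 more negative, and the median difference was 0.23. IGF2 was lower at both times, at -1.06 at 3 days and -0.45 at 6 days, and its difference of 0.62 was called.

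**Figure D5:**
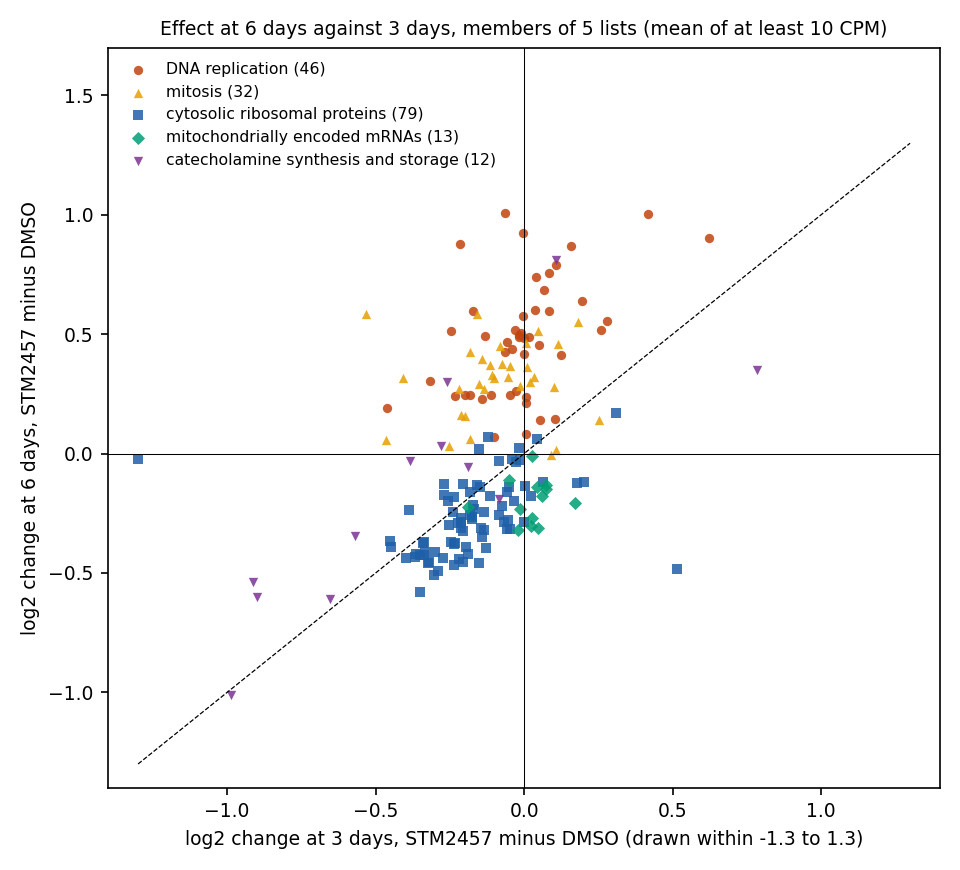
Log2 change at 6 days against the change at 3 days for members of 5 lists with a mean of at least 10 CPM, each list with its own colour and marker, with a dashed line at equal change. All 46 DNA replication genes lie above the line and all 13 mitochondrially encoded mRNAs below it.

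In NGP cells at 6 days, fitted together with Kelly, 887 of 17343 genes were called (5.11%; 2.87% higher and 2.24% lower), and the difference between the lines was called for 303 (1.75%), 183 more positive in Kelly (1.06%) and 120 more negative (0.692%). Of the genes called in Kelly and tested in both, 79.5% had the same sign in NGP, against 60.0% of the genes averaging 10 CPM or more. UNC5B, a netrin receptor, was at 0.30 ± 0.10 in Kelly and -1.63 in NGP, RNF187 at 0.18 ± 0.12 and -1.71, and GARS1, the glycyl-tRNA synthetase, at -0.24 ± 0.08 and -1.35. HSPA8 was at 0.23 and 1.01 and HSP90AA1 at 0.17 and 0.75. Serine, asparagine and one-carbon enzymes were called in the line difference for 11 of 25 genes, with list medians of -0.19 in Kelly and -0.80 in NGP. ASNS, for example, was at -1.88 in NGP (difference 0.89, edgeR adjusted p = 4.14e-05). STRA6 (0.06 in NGP), PLXNA2 (0.09) and PLXNA4 (0.20) differed between the lines, with edgeR adjusted p of 1.01e-11, 7.92e-05 and 0.0154. DDC rose in NGP by 0.40, and its difference of -1.03 was called. Of the 33 mitosis genes 26 rose in NGP and 12 in Kelly, and 5 were called in the difference.

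Exon length and chromosome were looked at as a description. The median exon length was 5501 bases for genes called higher, 5101 for those called lower and 4904 for all tested genes. In 5 bins of exon length, 4.03% of the longest genes were called higher, against 2.27 to 2.48% in the other bins. Removing a trend on length left 704 calls, 534 higher and 170 lower. Among nuclear chromosomes other than Y the share called higher ran from 0.667% (chromosome 21) to 4.09% (chromosome 10), and 7 of 13 mitochondrial genes were called lower.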

How the data were processed

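Poly(A) RNA of Kelly and NGP cells was sequenced, per the labels' protocols. The deposited values are raw counts of fragments per gene name that the authors made with featureCounts 1.5.3 over GENCODE v33 exons and ERCC spike-ins in paired-end mode, per the file headers. Settings for strandedness, multi-mapped reads and shared exons are not given in the sources used here. FastQC 0.11.5, Trimmomatic 0.36, HISAT2 2.1.0 and the build hg38 stand in the submitters' processing notes.

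Genes were filtered with filterByExpr (minimum count 10, total 15), scaled by TMM and tested with edgeR's quasi-likelihood test (edgeR 4.0.16, R 4.3.3) over the 24 Kelly libraries in 12 groups, with 12 residual degrees of freedom and Benjamini-Hochberg adjustment over all 16759 genes at 0.05. The difference between lines came from a joint fit of all 48 libraries over 17343 genes. Alternatives were DESeq2 1.42.0, limma-voom (limma 3.58.1), other scalings, filters and designs, and each library left out. With 2 libraries against 2, an exact permutation test cannot go below p = 0.333, so no single-value test was run. On counts simulated for this comparison with 14478 genes, the fit recovered 49.3% of genes changed 1.5-fold and 95.5% of those changed 2-fold. Changes were placed only in genes above a minimum mean count. The simulated spread was set by a formula and not estimated from these libraries, so these shares are not the power for all tested genes.

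Named genes are METTL3, MYCN, the 12 largest called changes in each direction with a mean of at least 10 CPM and no overlap, the 5 smallest p in each direction, up to 5 called members of each list (2 abundant members where none was called, all where a list holds at most 10) and the 5 smallest p of each difference. MAOA, SLC18A2, NRP1, COL6A3 and ASS1, and further values after actinomycin D, at 3 days or in NGP, were chosen after their values were seen, and CDC6 is named for its promoter window. The members and lists were chosen with earlier results of these data known. Some listed genes are not reported here.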

Additional observations from a re-analysis of the deposited data

Results flagged for a closer look

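The drug effect differed between 6 and 3 days in a direct test of the difference (edgeR adjusted p under 0.05) for 132 genes. The 5 with the smallest p had these values of 6 days minus 3 days on the log2 scale: CLSTN2 1.23, STRA6 2.09, PLXNA2 1.48, MYBL2 0.91 and HSP90AA1 0.53. The labels give no date, so collection of the 3-day and 6-day libraries cannot be told apart from duration.

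Kelly and NGP differed in the same kind of test at 6 days for 303 genes. As Kelly minus NGP on the log2 scale, the 5 with the smallest p were UNC5B at 1.91, HSP90AA1 at -0.60, RNF187 at 1.87, HSPA8 at -0.80 and GARS1 at 1.10. Groups of 2 libraries are too small for a check of single libraries that stand apart.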

How the results depend on the processing

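The count of 665 genes moved by more than 1.5 times in 7 alternatives. It was 1170 with ERCC scaling (99 higher, 1071 lower, with 311 of the 665 among them), 1016 in a fit on the 8 Kelly libraries at 0 h (607 higher, 409 lower) and 1145 in a fit on the 4 libraries alone with the replicate block (640 higher, 505 lower), the last chosen after seeing the data. The cause was not tested. The other 4 each left out 1 of the 4 libraries, fewer samples in the fit, and gave 342 to 399. The 4 libraries alone gave 885 calls, 478 higher and 407 lower; DESeq2 gave 908, limma-voom 612, RLE size factors 643, no filter 661 and the length trend removed 704. Without 1 library the 3 h contrast gave 489 to 554 calls, the 6 h contrast 1117 to 1418, the duration difference 61 to 93 and the line difference 242 to 313; those for 3 h and 6 h, and leaving out the 3-day and NGP libraries, were chosen after seeing the data. DESeq2 gave 309 calls for the duration difference and 459 for the line difference. Of the 172 named genes called, 8 changed sign with ERCC scaling: CHGA -0.0665, IGF2BP1 -0.0501, FASN -0.00537, HSPA8 -0.0243, HSP90AA1 -0.0845, DNAJA1 -0.0108, HNRNPA2B1 -0.0917 and HNRNPDL -0.000432, and 58 lost their call; leaving out 1 library lost 51 to 66 of them and changed no sign.

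No pairing of samples by replicate number was seen: over 66 pairs of groups, correlations of deviations ran from -0.0366 to 0.0498. Such correlations, taken across many genes, could miss a pairing that is weak or limited to some genes. With the replicate block, counts were 683 at 0 h, 911 at 3 h, 1701 at 6 h, 144 for the duration difference and 313 for the line difference, and none of the 172 named calls was lost.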

Other observations

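Further gene groups were listed after their values had been seen, so their counts are descriptions. Of all tested genes, 2.7% were called higher and 1.26% lower. Of 56 clustered histone genes 19 rose, with a median of 0.56 against 0.00 over all tested genes; H1-5, a linker histone, was at 671 and 646 CPM in DMSO and 1224 and 1133 CPM in STM2457 (0.84 ± 0.10). DESeq2 called 7 of them and limma-voom 33, ERCC scaling gave 7, and 11 to 14 were called without 1 library. Most such mRNAs lack a poly(A) tail and many copies are near-identical, so these counts are uncertain in poly(A) libraries. Of 17 condensin and cohesin subunits, which fold and hold chromosomes, 8 rose, among them SMC4 (0.47 ± 0.07) and NCAPG (0.49 ± 0.09). Without 1 library 3 to 5 were called higher, and ERCC scaling gave 1 higher and 1 lower with a median of 0.00. Proteasome subunits rose in 6 of 38 cases, led by PSMB5 (0.60 ± 0.12) and PSMC1 (0.61 ± 0.13). Without 1 library 2 to 4 were called higher, and ERCC scaling gave 0 higher and 0 lower with a median of -0.04.

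Among 36 translation factors 10 fell and 2 rose, with a median of -0.14. EEF1A1, the main elongation factor, changed by -0.25 ± 0.03, EIF4B by -0.46 ± 0.06, EIF3H by -0.56 ± 0.09, the ribosomal scaffold RACK1 by -0.35 ± 0.05 and the poly(A)-binding gene PABPC1 by -0.28 ± 0.05. Of 16 basement membrane genes 6 fell and 1 rose, and the proteoglycan HSPG2 (perlecan) was at 122 and 103 CPM in DMSO and 53.5 and 62.2 CPM in STM2457 (-0.96 ± 0.15). Cholinergic genes had 2 rises among 12, of SLC18A3, the vesicular acetylcholine transporter (1.14 ± 0.35), and the receptor subunit CHRNA7 (0.57 ± 0.17). Each lost its call when some of the 4 libraries were left out, CHRNA7 for any of them.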
